A study of Cavia porcellus with 72 samples.

Results

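The respiratory chain genes described here encode subunits of the 5 complexes that carry out oxidative phosphorylation. The rule that picked them used gene symbols and no measured value: NDUF genes of the A, B, C, S and V series, SDHA to SDHD, CYC1, symbols starting with UQCR, symbols from COX4 to COX8, and symbols starting with ATP5. The rule itself was chosen with earlier results of these data known. Of 11446 genes listed in the tables of all 3 generations, 61 matched. Complex I held 29 of these genes, complex II held 3, complex III held 7, and complexes IV and V held 11 each. All 61 passed the filter on low counts in every generation. Subunits under other symbols were not counted among the 61, and a short list of them is read further on. For subunits made from mitochondrial DNA 28 symbols were looked up, and 0 of them were among the genes listed. Grouping by symbol leaves some genes away from their usual place. NDUFA4 is now regarded as a subunit of complex IV, COX7A2L helps complexes III and IV to associate, and ATP5SL acts in the assembly of complex I.

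Oxidative phosphorylation passes electrons from NADH, at complex I, and from succinate, at complex II, through coenzyme Q to complex III and by way of cytochrome c to complex IV, where oxygen is reduced. Complexes I, III and IV pump protons across the inner mitochondrial membrane, and complex V uses the gradient to make ATP. Each complex contains core subunits, most of which bind the cofactors and do the chemistry. Most complexes also contain accessory subunits, which surround the core and are needed for assembly and stability. Neurons depend heavily on this pathway to restore ion gradients after firing.

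Pregnant Dunkin-Hartley guinea pigs (F0) received the synthetic glucocorticoid (sGC) betamethasone or saline, and descendants were followed down the paternal line through F1, F2 and F3. The question was whether the hippocampal transcriptome of sGC descendants differed from that of control descendants in each generation. RNA-seq was performed on the hippocampus of females at postnatal day 40, with 6 control and 5 sGC libraries in F1, 6 and 6 in F2, and 6 and 7 in F3. F1 animals were exposed as fetuses. F2 and F3 animals were not treated, and their fathers were F1 and F2 males of the line mated with females from outside the experiment. RNA came from powdered right hippocampus, so all cell types were mixed, and a lower level can reflect fewer cells of a type or less RNA per cell, which cannot be told apart. According to the paper, the females used all came from different mothers. The labels themselves do not tie libraries to litters, and the p-values measure the spread between libraries.

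Library totals ran from 13507449 to 19767033 counts, and the 61 genes took between 0.767% and 0.904% of them. All 11 hippocampal neuron markers were measured in every generation, with a summed level between 12117 and 16038 CPM (counts per 1000000 counts, scaled by TMM factors within a generation). The 5 libraries numbered 32 to 36 lay outside the numbering of their generation, and all were sGC: F1 replicates 4 and 5, F2 replicate 6, and F3 replicates 5 and 6. Results are therefore also given without them. Library F1 sGC replicate 4 stood apart from the other 4 of its group for several complex IV genes.

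In F1, most respiratory chain genes of complexes I, III, IV and V were lower in sGC animals, by small amounts. The genes varied together from library to library (median pairwise correlation 0.37 between complexes). Counts of genes by direction are therefore not counts of separate observations. Of 61 genes, 54 were lower and 7 higher, against 51.7% and 48.3% of all 11377 genes tested, and their median log2 fold change was -0.08, against -0.01 over all genes. In complex I 28 of 29 genes were lower, with a median of -0.10. All 7 genes of complex III were lower (median -0.09), as were 9 of 11 in complex IV (median -0.05) and 9 of 11 in complex V (median -0.10). Complex II did not share this direction, since SDHA and SDHC were higher and SDHB was lower. Without libraries 32 to 36, 58 of 61 genes were lower, with a median of -0.11, and the complex IV median became -0.14. In that fit all 3 complex II genes were lower, with a median of -0.02, so the direction of complex II turned with these libraries.

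**Figure D1:**
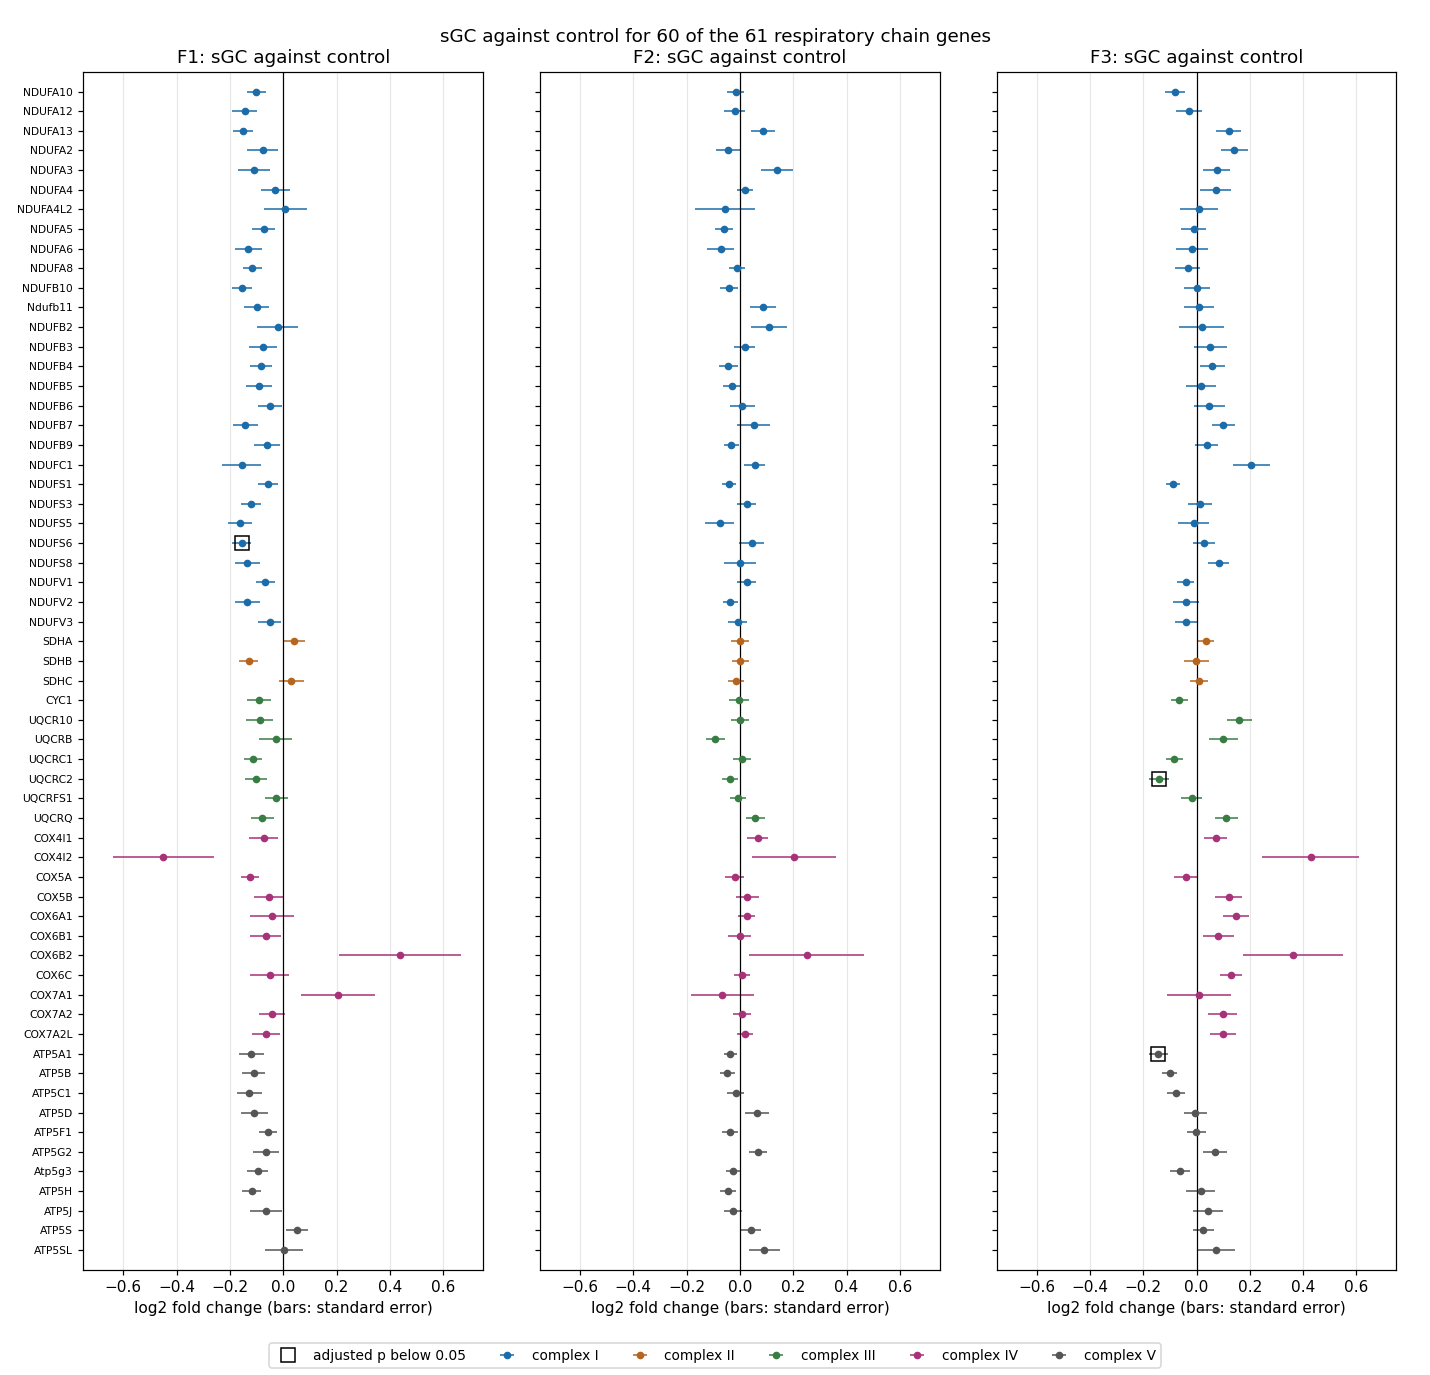
Log2 fold change of sGC against control (x axis; bars are standard errors) for 60 of the 61 genes (y axis) in F1, F2 and F3, coloured by complex, with squares around genes below the adjusted p threshold of 0.05. In F1 most points lie left of 0, in F2 they straddle 0, and in F3 complex IV lies mostly to the right while ATP5A1 and UQCRC2 lie to the left.

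Of the 61 genes, 1 passed the threshold of 0.05 on the adjusted p (edgeR quasi-likelihood test with Benjamini-Hochberg adjustment over all genes), the lower-expressed NDUFS6. Over all genes tested, 2.08% passed in either direction, 1.63% as higher and 0.457% as lower, and the 1 gene is 1.64% of the 61. The likelihood ratio test called 6 of the 61 as lower, where 198 of all genes were, and DESeq2 called 9, where 195 were. At an unadjusted p under 0.05, 24 respiratory chain genes were lower and 0 were higher, whereas 9.06% of all genes were lower and 10.5% were higher at this level. These 24 comprised 14 genes of complex I, 1 of complex II, 2 of complex III, 2 of complex IV and 5 of complex V. Every sGC library lay below every control library for 8 of the 61 genes, compared with 1.96% of all genes, and every sGC library lay above every control for 0 genes, compared with 2.45%. Without libraries 32 to 36, which left 3 sGC libraries, the first of these counts was 28 of 61, compared with 4.52% of all genes.

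NDUFS6, a zinc-binding accessory subunit next to the NADH-oxidising arm of complex I, ranged in F1 controls from 44.2 to 46.3 CPM, with a median of 45.0 CPM. The 5 F1 sGC libraries held 40.2, 39.5, 41.5, 40.9 and 40.2 CPM of NDUFS6. All 5 were below the lowest control, and the group means were 45.1 ± 0.756 CPM (SD, n = 6) and 40.5 ± 0.76 CPM (SD, n = 5). The log2 fold change of NDUFS6 was -0.16 ± 0.0351 (SE), with an adjusted p of 0.0399 by the edgeR quasi-likelihood test. This call rested on the full set of libraries: it was kept in 1 of the 11 fits that left out a single library, the one without F1 sGC replicate 4, and without libraries 32 to 36 the adjusted p was 0.0831 at an unchanged log2 fold change of -0.16.

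The other genes with no overlap between F1 groups were named after their values were seen. They were NDUFA8, NDUFA13 and NDUFB10 of complex I, SDHB of complex II, UQCRC1 of complex III, COX5A of complex IV and ATP5B of complex V. NDUFA13, also known as GRIM-19, is a membrane-arm accessory subunit. It measured 76.7 to 82.4 CPM in F1 controls (median 79.7 CPM) and 72.6, 69.2, 68.3, 76.3 and 73.0 CPM in the sGC libraries. The highest sGC library was just under the lowest control, the log2 fold change was -0.15 ± 0.0377 (SE), and the adjusted p was 0.0572 (edgeR). NDUFB10, a membrane-arm accessory subunit, had a log2 fold change of -0.16 ± 0.0386 (SE) and an adjusted p of 0.0554, and NDUFA8, from the intermembrane-space side, one of -0.12 ± 0.0369 (SE) with an adjusted p of 0.11 (edgeR).

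SDHB carries the iron-sulfur clusters of complex II, and it was the complex II gene that was lower in F1. Its level was 94.2 to 103 CPM in controls (median 96.5 CPM) and 87.4, 89.6, 91.9, 88.9 and 88.4 CPM in sGC libraries. All 5 lay below the lowest control, with a log2 fold change of -0.13 ± 0.0357 (SE) and an adjusted p of 0.0739 (edgeR). SDHA, the flavoprotein that oxidises succinate, spanned 208 to 226 CPM in controls and 206 to 234 CPM in sGC libraries, and SDHC, a membrane anchor, spanned 101.4 to 110.3 CPM and 102.2 to 121.9 CPM. The groups overlapped for both genes.

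In complexes III to V, the smallest p in F1 belonged to UQCRC1, COX5A and ATP5H. UQCRC1, a core protein of complex III, had controls of 247 to 261 CPM (median 254 CPM) and sGC libraries of 234, 232, 240, 227 and 241 CPM, with a log2 fold change of -0.11 ± 0.0349 (SE) and an adjusted p of 0.101 (edgeR). COX5A, a matrix-side accessory subunit of complex IV, had controls of 193.7 to 203.8 CPM (median 199.8 CPM) and sGC libraries of 176, 186, 180, 189 and 182 CPM. Its log2 fold change was -0.13 ± 0.0336 (SE) with an adjusted p of 0.0691 (edgeR). ATP5H, from the peripheral stalk of ATP synthase, had a log2 fold change of -0.12 ± 0.035 (SE) and an adjusted p of 0.0882 (edgeR), and 4 of 5 sGC libraries lay below every control.

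**Figure D2:**
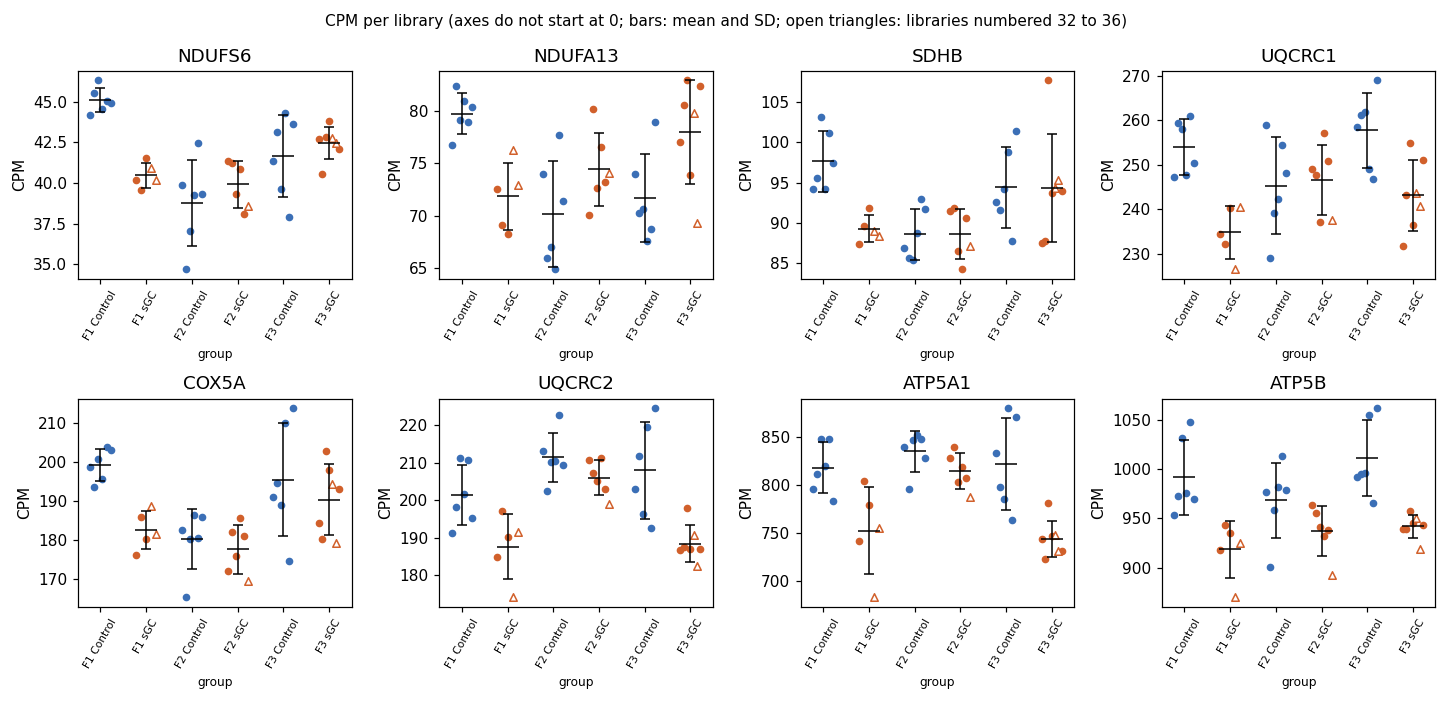
CPM (y axis, not starting at 0) of 8 respiratory chain genes in each library of the 6 groups (x axis), with group mean and SD as bars and open triangles for libraries 32 to 36. F1 sGC libraries lie below F1 controls for NDUFS6, NDUFA13, SDHB, UQCRC1, COX5A and ATP5B, and in F3 the sGC libraries of UQCRC2, ATP5A1 and ATP5B lie low.

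ATP5B, the catalytic beta subunit of ATP synthase, had F1 controls of 954 to 1047 CPM (median 974 CPM) and sGC libraries of 918, 943, 935, 870 and 925 CPM. The groups did not overlap, but the log2 fold change of -0.11 ± 0.0439 (SE) had an adjusted p of 0.186 (edgeR). ATP5A1, the alpha subunit that alternates with beta in the catalytic head, measured 783 to 848 CPM in controls and 742, 803, 779, 683 and 755 CPM in sGC libraries, and 4 of 5 sGC libraries lay under the lowest control. The lowest ATP5A1 and ATP5B values were both in F1 sGC replicate 4, the library that was highest for complex IV genes.

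The CPM summed over each complex is given by library, as a description with no test. In F1 the complex V sum was 2796 to 2993 CPM in controls and 2594 to 2789 CPM in sGC libraries, with no overlap. The complex I sum was 2750 to 2869 CPM in controls and 2535 to 2761 CPM in sGC libraries, with a single sGC library, replicate 4, above the lowest control. The complex IV sum overlapped: it was 1249, 1298, 1281, 1562 and 1352 CPM in sGC replicates 1 to 5 and 1357 to 1486 CPM in controls, so replicate 4 was the highest F1 library and the other 4 were below every control. The complex II sum did not separate the groups, at 409 to 433 CPM in controls and 396 to 444 CPM in sGC libraries.

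**Figure D3:**
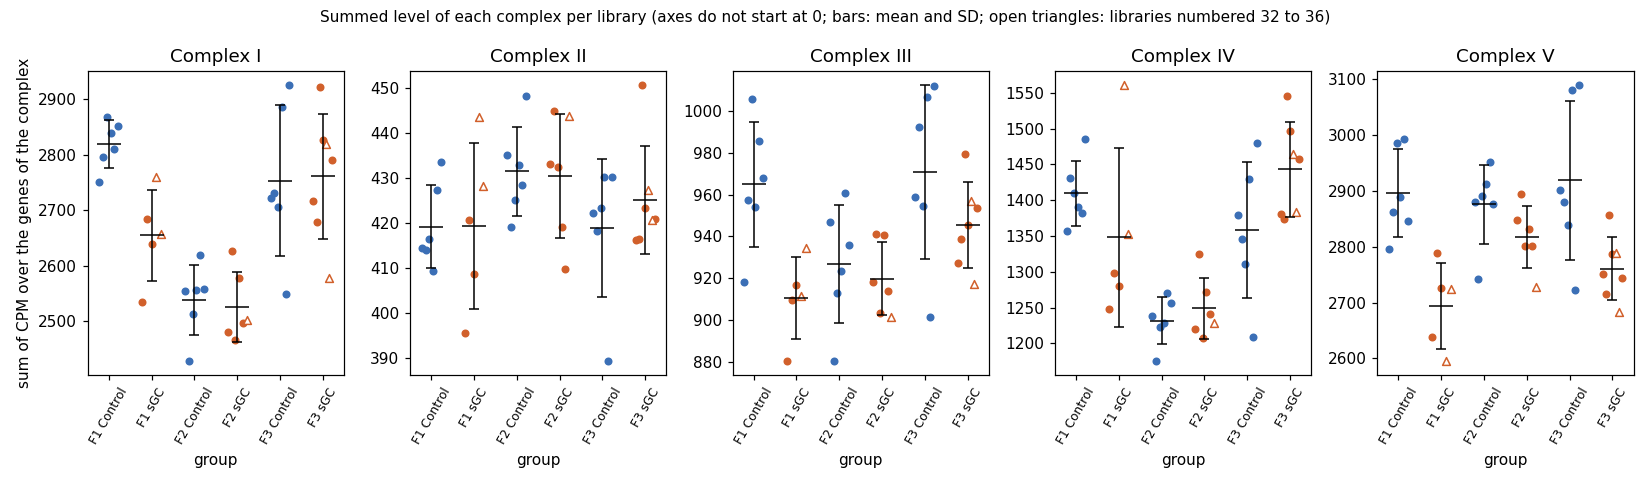
Sum of CPM over the genes of each complex (y axes, not starting at 0) per library in the 6 groups (x axis), with mean and SD as bars and open triangles for libraries 32 to 36. In F1 the complex V sums of sGC libraries (2594 to 2789 CPM) lie below those of controls (2796 to 2993 CPM), and 1 F1 sGC library, at 1562 CPM, stands above all others in its group for complex IV.

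Beside this, markers of other cell types differed in level in F1. All 8 astrocyte markers tested were higher in sGC libraries (median log2 difference 0.24, 0 called), and their summed level was 8308 to 10853 CPM in controls and 9481 to 15487 CPM in sGC libraries. All 7 oligodendrocyte markers tested were lower (median -0.21, 0 called), and 7 of 8 interneuron markers were lower (median -0.13), with CCK, a neuropeptide, called. All 7 meningeal fibroblast markers were lower (median -0.86), with the matrix proteoglycans DCN and LUM called and a summed level of 97.5 to 276 CPM in controls and 67.2 to 135 CPM in sGC libraries. Of 8 microglial markers 7 were higher (median 0.18), of 8 endothelial markers 6 were higher (median 0.11) and of 11 hippocampal neuron markers 6 were lower (median -0.04), with 0 called in these lists. At most 3 choroid plexus and 2 blood markers were measured in any generation. In F1 both of the 2 choroid plexus markers were lower (median -0.35, 0 called). The 1 blood marker, at 2.10 CPM or less, had a log2 fold change of -1.28 and was not called. The part of these shifts in the respiratory chain result was not tested.

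In F2, the respiratory chain genes did not separate sGC from control animals. Of the 61 genes, 28 were higher and 33 lower, against 49.7% and 50.3% of all genes, with a median log2 fold change of -0.001, and 0 were called by the edgeR quasi-likelihood test, where 0% of the 11414 genes tested were called. At an unadjusted p under 0.05, NDUFA3 was higher and UQCRB was lower, compared with 3.74% of all genes higher and 2.9% lower at that level. Every sGC library lay beyond every control library, in either direction, for 0 respiratory chain genes, compared with 0.184% of all genes below and 0.219% above. The likelihood ratio test and DESeq2 called 6 and 12 genes in F2, and 0 of the 61. In each marker list, 0 genes were called in F2. The list medians were 0.33 for the 2 blood markers, 0.05 for the 3 choroid plexus markers, 0.04 for astrocytes, 0.03 for hippocampal neurons, 0.04 for interneurons, 0.001 for oligodendrocytes, -0.02 for microglia, 0.01 for endothelial cells and -0.03 for meningeal fibroblasts.

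NDUFA3, a small membrane-arm subunit of complex I, ranged in F2 from 34.8 to 44.1 CPM in controls (median 38.7 CPM) and from 37.0 to 47.4 CPM in sGC libraries (median 42.7 CPM). Its log2 fold change was 0.14 ± 0.061 (SE) with an adjusted p of 0.733 (edgeR). UQCRB, which helps to form the quinone site of complex III, ranged from 70.9 to 77.3 CPM in controls (median 72.6 CPM) and from 65.3 to 74.0 CPM in sGC libraries (median 66.9 CPM), with a log2 fold change of -0.09 ± 0.0368 (SE) and an adjusted p of 0.711 (edgeR). In both cases the groups overlapped. The smallest p in the other complexes belonged to SDHC (log2 fold change -0.01 ± 0.0294 SE), COX4I1 (0.07 ± 0.0391 SE) and ATP5G2, a gene for the c ring (0.07 ± 0.0339 SE). The genes called in other generations had F2 log2 fold changes of 0.04 ± 0.046 (NDUFS6), -0.04 ± 0.0286 (UQCRC2) and -0.04 ± 0.0249 (ATP5A1), each with its SE.

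In F3, the direction differed within the respiratory chain. Most complex IV genes were higher in sGC animals, 10 of 11 at a median log2 fold change of 0.10, with 0 called. ATP5A1 and UQCRC2, of complexes V and III, fell. The complex IV sum overlapped, at 1208 to 1480 CPM in controls and 1374 to 1545 CPM in sGC libraries. Complex IV genes varied together from library to library (median pairwise correlation 0.51), so their directions are not separate observations. Over all 61 genes 37 were higher and 24 lower, against 51.7% and 48.3% of all genes, with a median of 0.02, against a median of 0.005 over the 11359 genes tested. Complex I was mixed, with 17 of 29 higher (median 0.01), as were complex II, with 2 of 3 higher (median 0.01), complex III, with 3 of 7 higher (median -0.02), and complex V, with 5 of 11 higher (median -0.001). The balance of higher and lower genes over the whole set depended on single libraries, since the number lower ran from 18 without F3 control replicate 6 to 32 without F3 control replicate 5.

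The edgeR quasi-likelihood test called ATP5A1 and UQCRC2 in F3, both lower, where 5.04% of all genes tested were called in either direction, 2.17% as higher and 2.87% as lower. The 2 genes are 3.28% of the 61, a share near the 2.87% of all genes. At an unadjusted p under 0.05, 10 respiratory chain genes were higher, compared with 10.3% of all genes, and 7 were lower, compared with 10.8%. The 10 higher genes were NDUFA2, NDUFA13, NDUFB7 and NDUFC1 of complex I, UQCR10 and UQCRQ of complex III, and COX4I2, COX5B, COX6A1 and COX6C of complex IV. The 7 lower genes were NDUFA10 and NDUFS1 of complex I, UQCRC1 and UQCRC2 of complex III, and ATP5A1, ATP5B and ATP5C1 of complex V.

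ATP5A1 measured 763 to 880 CPM in F3 controls (median 815 CPM) and 724 to 781 CPM in F3 sGC libraries (median 743 CPM). Of the 7 sGC libraries, 6 were below the lowest control, and the highest was replicate 3. The log2 fold change was -0.14 ± 0.0363 (SE) with an adjusted p of 0.031 (edgeR). UQCRC2, the core protein 2 of complex III, measured 192 to 225 CPM in controls (median 207 CPM) and 182.5 to 197.9 CPM in sGC libraries (median 187.1 CPM). Again 6 of 7 sGC libraries were below the lowest control, and the log2 fold change was -0.14 ± 0.0374 (SE) with an adjusted p of 0.0379 (edgeR).

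Neither F3 call held without libraries 32 to 36, where the adjusted p was 0.0894 for ATP5A1 and 0.11 for UQCRC2 with log2 fold changes of -0.14 and -0.14. The call of ATP5A1 was kept in 6 of the 13 fits that left out a single library and that of UQCRC2 in 3 of 13. ATP5B measured 965 to 1062 CPM in F3 controls (median 995 CPM) and 919 to 957 CPM in sGC libraries (median 943 CPM), so that every sGC library lay below every control. It was the 1 respiratory chain gene without overlap in F3, compared with 1.88% of all genes below and 0.836% above, and its log2 fold change of -0.10 ± 0.0293 (SE) had an adjusted p of 0.0536 (edgeR). The complex V sum ran from 2723 to 3091 CPM in F3 controls and from 2682 to 2857 CPM in sGC libraries, which overlapped.

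NDUFS1, the largest iron-sulfur subunit of complex I, had the smallest p of that complex in F3. It ran from 229 to 246 CPM in controls (median 236 CPM) and from 217 to 232 CPM in sGC libraries (median 223 CPM), with 6 of 7 sGC libraries below the lowest control and a log2 fold change of -0.09 ± 0.0271 (SE; adjusted p 0.0652, edgeR). Among the genes that were higher, COX6C, an accessory subunit of complex IV, had 112.7 to 136.5 CPM in controls (median 124.7 CPM) and 130.3 to 142.7 CPM in sGC libraries (median 139.2 CPM). Its log2 fold change was 0.13 ± 0.0414 (SE) with an adjusted p of 0.0843 (edgeR). In complex II the smallest p was that of SDHA, with a log2 fold change of 0.04 ± 0.03 (SE) and an adjusted p of 0.528 (edgeR).

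UQCR10, a small accessory subunit of complex III, was higher in F3, where UQCRC2 of the same complex fell. It measured 57.3 to 68.5 CPM in controls (median 64.1 CPM) and 66.67 to 75.03 CPM in sGC libraries (median 69.1 CPM), and 6 of 7 sGC libraries were above the highest control. The log2 fold change was 0.16 ± 0.0486 (SE), with an adjusted p of 0.0644 (edgeR). NDUFC1, a small membrane-arm subunit of complex I named after its values were seen, measured 23.4 to 29.3 CPM in controls (median 26.03 CPM) and 24.4 to 35.1 CPM in sGC libraries (median 30.3 CPM), with 5 of 7 above the highest control and a log2 fold change of 0.21 ± 0.0705 (SE; adjusted p 0.103, edgeR).

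A division into core and accessory subunits was made after the values were seen. UQCRC1 and UQCRC2, the core proteins of complex III, were counted as core. The division gave these counts in F3. Of 19 core genes 14 were lower, with a median log2 fold change of -0.04, and of 42 accessory genes 32 were higher, with a median of 0.05. At an unadjusted p under 0.05, the core genes held 6 lower and 0 higher, and the accessory genes 1 lower and 10 higher. All 11 complex IV genes were in the accessory class, so this division overlaps the complex IV result. They gave 10 of the 32 higher accessory genes, and 4 of the 10 at an unadjusted p under 0.05. Without libraries 32 to 36, 14 of 19 core genes were lower and 37 of 42 accessory genes higher. In F1 both classes were lower, with 17 of 19 core genes (median -0.10) and 37 of 42 accessory genes (median -0.08). In F2 the medians were -0.01 for core and 0.003 for accessory genes. The difference between the classes was not tested.

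**Figure D4:**
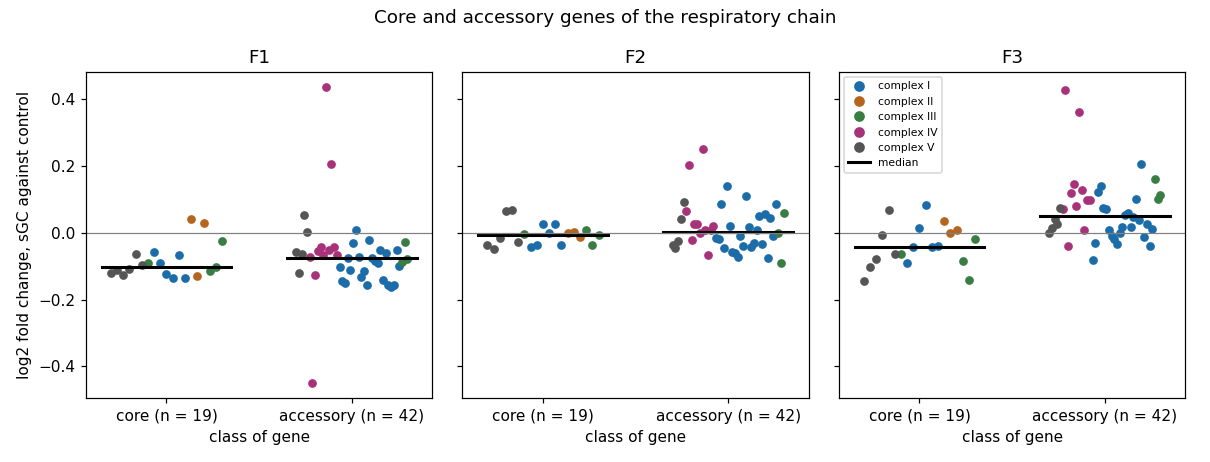
Log2 fold change of sGC against control (y axis) for the 19 core and 42 accessory genes (x axis) in F1, F2 and F3, coloured by complex, with the median of each class as a line. In F3 the core median is -0.04 and the accessory median 0.05, while in F1 both medians lie below 0. The classes were drawn after the values were seen, and their difference was not tested.

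Markers of several other cell types also lay mostly in 1 direction in F3. Over all genes 48.3% were lower and 51.7% higher, with 2.87% called lower and 2.17% called higher. All 8 astrocyte markers tested were higher (median 0.19), with GLUL, S100B and SLC1A2 called, and their summed level was 9184 to 10165 CPM in controls and 10382 to 11931 CPM in sGC libraries, with no overlap. Of 11 hippocampal neuron markers 8 were lower (median -0.08), with the synaptic vesicle fusion genes SNAP25 and SYT1 called, and of 8 interneuron markers 7 were lower (median -0.15), with the GABA-synthesis genes GAD1 and GAD2 called. All 7 meningeal fibroblast markers and all 8 microglial markers tested were higher, at medians of 0.18 and 0.10, with 0 called, as were 7 of 8 endothelial (median 0.05) and 5 of 7 oligodendrocyte markers (median 0.05). The 2 choroid plexus markers had a median of -0.02, and the 1 blood marker a log2 fold change of -0.56, with 0 called. The part of these shifts in the levels of ATP5A1, UQCRC2 or the accessory genes was not tested.

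Whether the sGC effect itself differed between generations was tested in a joint fit of all 36 libraries over 11390 genes. The contrasts of F2 with F1 and of F3 with F1 share the F1 libraries. For F2 against F1, 0 of the 61 genes were called, compared with 0.29% of all genes (0.0702% positive and 0.219% negative). Of the 61 differences 54 were positive, meaning that the sGC log2 fold change was higher in F2 than in F1, and 7 negative, against 48.5% and 51.5% of all genes. At an unadjusted p under 0.05, 12 were positive and 0 negative, compared with 7.07% and 9.69% of all genes. For F3 against F1, 0 of the 61 were called, where 0% of all genes were called, and 51 differences were positive and 10 negative, against 48.1% and 51.9%. Of these 20 were positive and 0 negative at an unadjusted p under 0.05, compared with 5.24% and 7.84%. For F3 against F2, 0 of the 61 and 0% of all genes were called, and 35 differences were positive and 26 negative, against 51.2% and 48.8%. Of these 3 were positive and 3 negative at an unadjusted p under 0.05, compared with 3.88% and 5.2%.

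NDUFA13 had the smallest adjusted p of the set in both contrasts against F1 (edgeR quasi-likelihood test), and it was named after its values were seen. Its sGC log2 fold change was -0.15 ± 0.0377 (SE) in F1, and in F3 it was 0.12 ± 0.0469 (SE). F3 controls held 67.6 to 78.9 CPM of NDUFA13 (median 70.4 CPM) and F3 sGC libraries 69.3 to 82.9 CPM (median 79.8 CPM), with 4 of 7 above the highest control. The difference of log2 fold changes was 0.23 ± 0.0651 (SE; adjusted p 0.0796) for F2 against F1 and 0.27 ± 0.0637 (SE; adjusted p 0.0738) for F3 against F1. For NDUFC1 and UQCR10 the F3 against F1 differences were 0.35 ± 0.0916 (SE; adjusted p 0.0981) and 0.24 ± 0.0643 (SE; adjusted p 0.108), and for NDUFS6 the F2 against F1 difference was 0.19 ± 0.0559 (SE; adjusted p 0.087).

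The contrast of F3 with F1 changed most without F1 sGC replicate 4. Without F1 sGC replicate 4, 454 genes and 11 of the 61 respiratory chain genes were called, and without libraries 32 to 36, 431 genes and 9 of the 61 were called, compared with 1.66% of all genes in the positive and 2.11% in the negative direction. All 9 differences were positive: NDUFC1 (0.51, adjusted p 0.00141), NDUFA13 (0.34, adjusted p 0.00826), COX6C (0.31, adjusted p 0.00826), UQCR10 (0.33, adjusted p 0.00864), COX6A1 (0.33, adjusted p 0.0114), UQCRQ, COX4I2, NDUFB4 and COX4I1, all by the edgeR quasi-likelihood test. These 9 comprised 3 genes of complex I, 2 of complex III and 4 of complex IV, and 0 of them were of complexes II or V.

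Some complex IV subunits exist as paralogues, and their levels were compared within each gene only. COX4I1, the widely expressed form of subunit 4, measured 248 to 274 CPM in F1 controls (median 258 CPM) and 233, 231, 232, 285 and 249 CPM in F1 sGC replicates 1 to 5. COX6A1, the non-muscle form of subunit 6a, measured 225 to 263 CPM in F1 controls and 206, 219, 219, 302 and 233 CPM in F1 sGC replicates 1 to 5. For both genes F1 sGC replicate 4 was the highest of all 11 F1 libraries. The log2 fold changes in F1 were -0.07 ± 0.0551 (SE) for COX4I1 and -0.04 ± 0.0833 (SE) for COX6A1 (adjusted p 0.483 and 0.823, edgeR), and without F1 sGC replicate 4 they were -0.13 and -0.14.

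In F3, COX6A1 measured 218 to 262 CPM in controls (median 232 CPM) and 237 to 281 CPM in sGC libraries (median 267 CPM), with 4 of 7 above the highest control and a log2 fold change of 0.15 ± 0.0491 (SE; adjusted p 0.093, edgeR). COX4I1 had a log2 fold change of 0.07 ± 0.043 (SE; adjusted p 0.365, edgeR) and overlapping groups. COX4I2, the form of subunit 4 linked to oxygen supply and abundant in lung, lay near the lower end of what was counted. It measured 1.35 to 1.98 CPM in F1 controls (median 1.80 CPM) and 1.16, 0.907, 1.20, 1.89 and 1.14 CPM in F1 sGC libraries, with a log2 fold change of -0.45 ± 0.189 (SE; adjusted p 0.209, edgeR). In F3 it measured 0.911 to 1.85 CPM in controls and 1.24 to 2.28 CPM in sGC libraries, with a log2 fold change of 0.43 ± 0.183 (SE; adjusted p 0.19, edgeR), and the F3 against F1 difference of 0.87 ± 0.249 (SE) had an adjusted p of 0.142 (edgeR).

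**Figure D5:**
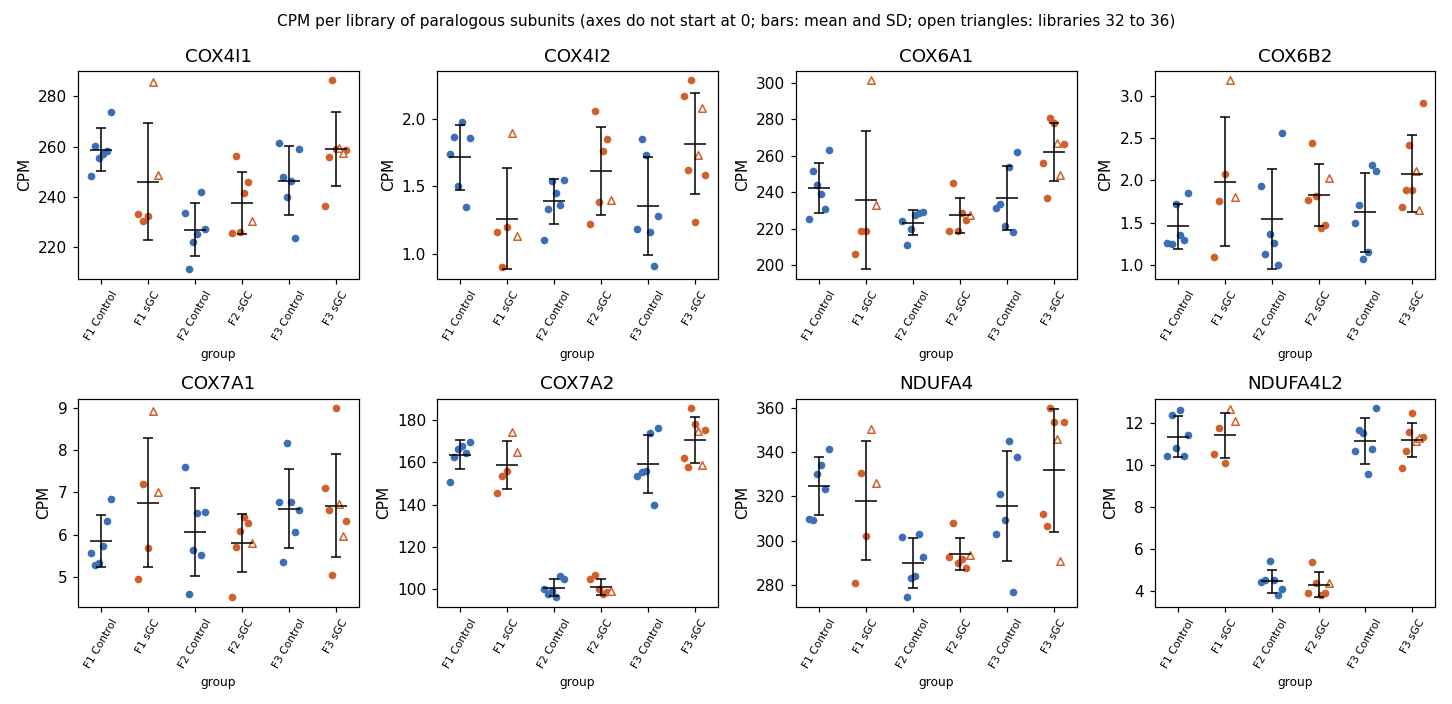
CPM (y axes, not starting at 0) of 8 subunits with paralogues in each library of the 6 groups (x axis), with mean and SD as bars and open triangles for libraries 32 to 36. F1 sGC replicate 4, the upper triangle of F1 sGC, is the highest F1 library for COX4I1 and COX6A1, and COX7A2 and NDUFA4L2 lie lower in every F2 library than in every F1 and F3 library.

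Levels were also compared between generations, on a CPM scale set across all 36 libraries and with no test. Every F2 library lay below every F1 and F3 library for 5 of the 61 genes, a share near the 6% of all genes, and above them for 0 of the 61, compared with 3.38% of all genes. Of these 5 genes NDUFB6, NDUFA10 and UQCRFS1 were named after their values were seen. NDUFA4L2, a hypoxia-inducible paralogue of NDUFA4, was at 3.76 to 5.37 CPM in F2 and 9.67 to 13.1 CPM in F1 and F3. COX7A2, the widely expressed form of subunit 7a, was at 95.8 to 106.0 CPM in F2 and 142.6 to 187.7 CPM in F1 and F3. NDUFB6, a membrane-arm subunit, was at 47.0 to 57.6 CPM in F2 and 85.4 to 109 CPM in the others. NDUFA10 and UQCRFS1, the Rieske iron-sulfur protein, made up the 5, with F2 means at 0.674 and 0.714 of the mean of the other generations. Each generation came as its own table, so generation and table cannot be told apart. Library 33, the F2 library numbered with late F1 and F3 libraries, is among the F2 libraries that set these F2 ranges.

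COX7A2 did not separate treatments in F1 or F3, with log2 fold changes of -0.04 ± 0.0486 (SE) and 0.10 ± 0.0534 (SE) and adjusted p-values of 0.656 and 0.311 (edgeR). The low-level paralogues COX6B2, known mainly from testis, and COX7A1, the heart and muscle form, stayed between 1.00 and 3.18 CPM and between 4.52 and 9.00 CPM over all groups, with overlapping treatment groups in each generation. COX6B1, COX7A2L and NDUFA4 also overlapped between treatments in each generation. ATP5SL had 13.1 ± 0.712 CPM (SD, n = 6) and 13.1 ± 1.23 CPM (SD, n = 5) in F1 controls and F1 sGC animals, which overlapped.

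Most of the 61 genes varied together from library to library. With group means removed, the median pairwise Pearson correlation of log2 CPM over the 36 libraries was 0.41 within complex I, 0.27 within II, 0.33 within III, 0.51 within IV and 0.30 within V, 0.37 between complexes and -0.001 over all genes. These pairs share the library, its depth and its cell composition, so the values are a description. Without libraries 32 to 36 the medians were 0.38 to 0.45 within complexes I to IV and 0.34 within V. COX5A and COX7A2 followed the rest of the set most closely, with median correlations of 0.59 and 0.58, and NDUFS1 (-0.04) and ATP5S, a coupling factor named after its value was seen (-0.01), followed it least.

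Lists of other mitochondrial genes held these calls. NDUFAB1, the mitochondrial acyl carrier protein that is also a complex I subunit, fell in F1, with a log2 fold change of -0.17 ± 0.0387 (SE; adjusted p 0.0447, edgeR), from 89.4 ± 2.35 CPM (SD, n = 6) to 79.6 ± 3.85 CPM (SD, n = 5). The list of tricarboxylic acid cycle and pyruvate dehydrogenase genes covers enzymes that supply NADH and succinate to the chain or acetyl-CoA to the cycle. Of its 15 genes, 11 were lower in F1, where 51.7% of all genes were lower and 0.457% were called lower, and MDH2, malate dehydrogenase, was called (-0.21 ± 0.05 SE; adjusted p 0.0482, edgeR), and 13 were lower in F3, where 48.3% of all genes were lower and 2.87% were called lower, with PDHB, a pyruvate dehydrogenase subunit, and SUCLG1, of the cycle enzyme succinyl-CoA ligase, called. Their F3 log2 fold changes were -0.14 ± 0.035 (SE; adjusted p 0.0258) and -0.13 ± 0.0301 (SE; adjusted p 0.0183) by edgeR. The list median in F3 was -0.10. The adjusted p of NDUFAB1 and of MDH2 lay close to the threshold of 0.05. Whether the calls in these lists hold without single libraries or without libraries 32 to 36 was not examined. Over all genes, 13 were called lower in F1 without libraries 32 to 36, against 52 with them.

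Assembly factors build the complexes without being part of them. In F1, where 28 of 29 complex I genes were lower, 7 of 14 complex I assembly factors were lower, with a median of 0.002. For complex IV, 12 of 18 assembly factors were lower in F1 (median -0.03) and 9 of 18 in F3 (median 0.0002). The assembly factors called were both lower in F3, where 2.87% of all genes were called lower. They were TIMMDC1, 1 of 14 tested for complex I (-0.14 ± 0.0387 SE; adjusted p 0.0443, edgeR), and TMEM70, 1 of 4 tested for complex V (-0.22 ± 0.0417 SE; adjusted p 0.00857, edgeR). Of the 11 regulators of mitochondrial biogenesis tested in F1 and F3, 6 were higher in each, with medians of 0.0005 and 0.005 and 0 called. For complexes II and III, 5 of 7 assembly factors were lower in F1 and 4 of 7 in F3, with 0 called by the quasi-likelihood test. The paper, which used the edgeR likelihood ratio test, reports SDHAF4 of this list as differentially expressed in F3. In F2, 0 genes of these lists were called.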

How the data were processed

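The 36 RNA-seq libraries of female guinea pig hippocampus were used. The authors deposited 1 table of raw counts per gene for each generation, and these counts were used as deposited. TopHat2 is named in the submitters' processing notes. The gene counter, genome build and annotation are not given in the sources used here, so reads shared with pseudogenes could not be checked, and the library kit does not mark strand. Further columns with the authors' own comparison (fold change, p and FDR), and the methylation tables, which hold only such comparisons, were not used.

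Genes were filtered with filterByExpr and scaled with TMM, and sGC was tested against control within each generation by the edgeR 4.0.16 quasi-likelihood test (R 4.3.3) with Benjamini-Hochberg adjustment at 0.05. Interactions were tested in a joint fit of the 3 generations. Levels are TMM-scaled CPM. Alternatives were the likelihood ratio test, DESeq2 1.42.0, other scalings, no filter, a joint fit, a replicate block, and fits without single libraries or libraries 32 to 36. The fits were tested on simulated data.

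Between 13507449 and 19767033 counts per library were available. No pair of libraries in a group agreed within counting noise (chi-square per degree of freedom of 2.1 or more). The symbol rule that defines the members, and the lists of genes, were chosen with earlier results of these data known. Genes were named where the adjusted p passed, where they had the smallest p or extreme level of their complex in a generation, or where they were listed isoforms. Others are said to be named after their values were seen, or stand in a list of all members that passed a stated p threshold. COX6A2, COX7B and COX8A were not analysed here. No nucleotide or protein sequence was used. A result on 1 gene of the set is not reported here, although the gene is counted in all totals.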

Additional observations from a re-analysis of the deposited data

Results flagged for a closer look

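In 192 groups of 5 to 7 libraries (27 named genes and 5 complex sums in 6 groups), 15 had a library far from the others by Dixon's criterion at 95%. Chance alone gives about 1 in 20 groups. In F1, control replicate 6 was high for COX6C, at 144.1 CPM with the next library at 131 CPM, and control replicate 1 was low for COX7A2, at 151 CPM with the next at 163 CPM. F1 sGC replicate 4 was high for COX6A1, at 302 CPM with the next at 233 CPM, and for SDHC, at 122 CPM with the next at 108 CPM.

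In F2, control replicate 2 was low for COX5A, at 165 CPM with the next at 180 CPM, and for the complex V sum, at 2742 CPM with the next at 2877 CPM. F2 sGC replicate 2 was high for NDUFA4, at 308 CPM with the next at 294 CPM, and for NDUFA4L2, at 5.39 CPM with the next at 4.399 CPM. F2 sGC replicate 1 was low for COX7A1, at 4.52 CPM with the next at 5.71 CPM.

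In F3, control replicate 5 was low for SDHA, at 203 CPM with the next at 218 CPM, and for the complex II sum, at 389 CPM with the next at 418 CPM. F3 control replicate 6 was high for ATP5SL, at 16.03 CPM with the next at 13.4 CPM. F3 sGC replicate 3 was high for SDHB, at 108 CPM with the next at 95.3 CPM, for the complex II sum, at 451 CPM with the next at 427 CPM, and for ATP5A1, at 781 CPM with the next at 748 CPM.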

How the results depend on the processing

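In F1, 185 genes were called higher and 52 lower as reported, 400 and 198 by the likelihood ratio test, 463 and 195 by DESeq2, 595 and 257 with all generations fitted together, 84 and 13 without libraries 32 to 36, and 142 and 92 with total counts and no scaling factor. The respiratory chain genes called lower numbered 6, 9, 5, 1 and 5 under these alternatives in the same order, and the 1 without libraries 32 to 36 was NDUFA13, not NDUFS6. In F2, 0 genes were called as reported, 3 higher and 3 lower by the likelihood ratio test, and 5 higher and 7 lower by DESeq2. In F3, 247 genes were called higher and 326 lower as reported, 412 and 532 by DESeq2, 92 and 242 with all generations together, and 161 and 156 without libraries 32 to 36. The F3 respiratory chain genes called higher numbered 1 by the likelihood ratio test, 4 by DESeq2 and 1 with all generations together, and those called lower numbered 4 by DESeq2, 1 with total counts and 0 without libraries 32 to 36. For F2 against F1, 33 genes were called as reported, 168 by the likelihood ratio test, 270 by DESeq2, 66 without the low count filter and 68 without libraries 32 to 36, with 1 and 2 respiratory chain genes by the likelihood ratio test and DESeq2. For F3 against F1 these tests called 58 and 67 genes, with 2 and 3 respiratory chain genes, and the fit without libraries 32 to 36 called 431 and 9. The cause of these changes was not tested. The F3 complex V log2 ratio was -0.08 by summed CPM and -0.0135 by mean log2 CPM over the genes. The median correlation without libraries 32 to 36 was 0.38 within complex II and 0.45 within III.

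Leaving out single libraries gave, in F1, 52 to 276 genes called higher (without sGC replicate 5 and without sGC replicate 4), 4 to 72 lower and 0 to 4 respiratory chain genes lower. In F2 it gave 0 genes higher and 0 to 1 lower. In F3 it gave 116 to 316 genes higher and 172 to 323 lower (lowest without sGC replicate 5, highest without sGC replicate 6), with 0 to 2 respiratory chain genes higher and 0 to 3 lower. Both F3 calls were lost without control replicates 1, 4 or 6 or sGC replicates 1, 2, 5 or 7, and UQCRC2 alone was lost without control replicate 2, sGC replicate 4 or sGC replicate 6. For F2 against F1 the ranges were 0 to 219 genes (highest without F2 sGC replicate 6) and 0 to 2 respiratory chain genes, and for F3 against F1 0 to 454 and 0 to 11. The log2 fold change of COX6A1 in F1 ranged from -0.143 to 0.00326, with the sign turned without sGC replicate 1, and that of SDHC in F2 from -0.0249 to 0.00105, with the sign turned without sGC replicate 5. The F1 median of the 61 genes stayed between -0.10 and -0.07.

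Samples with the same replicate number did not deviate together in every pair (correlations of -0.07 to 0.31 in F1, -0.38 to 0.19 in F2 and -0.30 to 0.03 in F3). In F1, F2 and F3, 2 of 5, 1 of 6 and 0 of 6 libraries correlated best with their own number. The 2 in F1 were replicates 1 and 3, at 0.31 and 0.21. With the replicate block, 67 genes were called higher and 5 lower in F1, 70 higher and 101 lower in F3, and 4 for F2 against F1, with 0 respiratory chain genes in F1 and 0 in F3.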
